A study of Mus musculus with 8 samples.

Results

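The genes described here are developmental transcription factors of the LIM-homeodomain, Dlx, Nkx, Otx, Gbx, Zic, TALE (Meis and Pbx), POU, Irx and Sox families, which pattern the embryonic forebrain. They were chosen by symbol: 84 symbols of these families stood in both count tables, and the 69 with at least 20 counts summed over the 8 libraries were kept, of 33885 symbols in all. The 69 comprised 17 Sox genes, 10 POU genes, 9 Nkx genes, 7 LIM-homeodomain genes, 7 TALE genes, 6 Dlx genes, 5 Zic genes, 4 Otx and Gbx genes and 4 Irx genes. The other 15 symbols held fewer than 20 counts, and Sox1 and Pou3f3 were among 9185 symbols listed at 0 in every library. The options of the counting are not known, so a listing at 0 does not show that the RNA was absent. Selection used neither group nor direction, but it was made with earlier results of these data known. A gene could also reach 20 counts through a single region, as Nkx2-3 did, which had 0 counts in every mPFC library.

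Total RNA had been sequenced from the nucleus accumbens (NAc), the ventral part of the striatum, and from the medial prefrontal cortex (mPFC) of adult C57Bl6J males, an inbred strain with no allele or transgene named in the labels. The titles of all mPFC libraries carry WT (wild type), and those of the NAc libraries name no genotype. A first pair of NAc libraries came from mice that went through a place-preference procedure in which cocaine was injected i.p. at 7.5 mg/kg, and a second pair from mice left in the home cage. A pair of mPFC libraries came from mice exposed to social defeat by aggressive CD1 males and another from home-cage mice, and tissue was taken 15 min after the experience. Each of the 4 groups thus had 2 libraries, and no label says whether these were separate animals, so that p-values below measure only the spread between these samples. No saline, handling or apparatus control was among the groups. NAc values are given below for cocaine replicates 1 and 2 and then home-cage replicates 1 and 2, and mPFC values for home-cage replicates 1 and 2 and then social defeat replicates 1 and 2, all in CPM (counts per library scaled with edgeR's TMM factors).

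Homeodomain, zinc-finger and HMG-box factors of these families divide the embryonic telencephalon into a dorsal part, which forms the glutamatergic neurons of the cortex, and ventral ganglionic eminences, which form striatal projection neurons, interneurons and basal forebrain cholinergic neurons. Dlx and Nkx2-1 act in ventral progenitors, Lhx2 and Otx1 in dorsal ones, and Meis and Pbx proteins bind DNA together with other homeodomain proteins. Many of these genes stay active in mature neurons or glia, Sox10 in oligodendrocytes and Sox9 in astrocytes among them.

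Libraries held between 111901829 and 179479978 counts, and the 69 genes together took between 0.302% and 0.329% of the counts of a NAc library and between 0.178% and 0.187% of a mPFC library. The tissue labels were set against markers. The mean log2 CPM of 12 striatal projection neuron genes minus that of 12 cortical glutamatergic genes reached 2.43 in the first and 0.36 in the second cocaine library. It reached 2.96 in the first and 0.21 in the second NAc home-cage library, and the mPFC libraries ranged from -3.26 to -3.20. All 4 NAc libraries thus lay on the striatal side of the 4 mPFC libraries, but the libraries numbered 2 stood well below those numbered 1.

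Sequence upstream of the start site was at hand for 45 of the 69 genes (RefSeq, GRCm38.p6), in 60 windows of 250 bases. These windows were rich in CG dinucleotides: the median was 13 per window against 6 over all 32851 windows, and the median GC content was 60.4% against 52.4%. The windows below belong to genes that passed in both regional comparisons, and hold no annotated exon base. They lie at chr2:71546755-71547004 (Dlx2, minus strand), chr12:56536909-56537158 (Nkx2-1, minus strand), chr14:48667645-48667894 (Otx2, minus strand, inside the annotated gene body and upstream of an internal start), chr12:27342719-27342968 (Sox11, minus strand) and chr2:38339031-38339280 (Lhx2, plus strand). Each is written 5' to 3' on the gene's strand and ends at the base before the start, and capitals mark the homeodomain core TAATTA.

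Dlx2: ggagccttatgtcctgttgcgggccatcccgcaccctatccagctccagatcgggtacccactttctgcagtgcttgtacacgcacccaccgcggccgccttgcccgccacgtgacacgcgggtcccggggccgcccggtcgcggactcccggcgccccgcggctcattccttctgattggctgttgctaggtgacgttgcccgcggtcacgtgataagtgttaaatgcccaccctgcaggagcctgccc
Nkx2-1: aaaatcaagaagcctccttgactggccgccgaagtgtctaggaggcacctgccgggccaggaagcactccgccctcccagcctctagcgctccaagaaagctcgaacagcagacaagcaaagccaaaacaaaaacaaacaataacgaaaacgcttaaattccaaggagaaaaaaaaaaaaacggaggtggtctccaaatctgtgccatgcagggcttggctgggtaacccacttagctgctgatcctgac
Otx2: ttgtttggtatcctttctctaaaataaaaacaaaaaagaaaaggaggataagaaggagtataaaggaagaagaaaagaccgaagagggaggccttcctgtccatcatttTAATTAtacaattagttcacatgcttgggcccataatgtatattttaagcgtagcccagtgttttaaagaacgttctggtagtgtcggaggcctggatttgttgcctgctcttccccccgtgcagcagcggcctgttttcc
Sox11: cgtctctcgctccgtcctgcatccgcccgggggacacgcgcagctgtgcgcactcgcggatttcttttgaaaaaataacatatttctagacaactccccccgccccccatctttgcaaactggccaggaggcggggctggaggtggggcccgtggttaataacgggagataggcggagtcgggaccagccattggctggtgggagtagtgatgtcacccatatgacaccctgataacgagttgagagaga
Lhx2: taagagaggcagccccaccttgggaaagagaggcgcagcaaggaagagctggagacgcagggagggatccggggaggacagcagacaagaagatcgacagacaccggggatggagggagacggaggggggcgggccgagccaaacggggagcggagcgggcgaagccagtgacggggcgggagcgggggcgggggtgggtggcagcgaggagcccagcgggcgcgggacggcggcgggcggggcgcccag

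The window of Otx2 holds TAATTA, which begins 141 bases before the start, and the windows of Dlx2, Nkx2-1, Sox11 and Lhx2 hold none of the 4 motifs searched on both strands. GC content ran from 42.0% in the Otx2 window to 72.8% in the Lhx2 window. Over all the windows of these genes TAATTA was present in 3.33% against 4.84% of all windows, TGACAG (a Meis and TGIF core) in 11.7% against 15.9%, ACAATG (a Sox core) in 11.7% against 10.7%, and TGCAAAT (part of the octamer read by POU factors) in 3.33% against 3.56%. No motif contains another, and a match is a description of letters, not of binding.

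In home-cage mice, NAc and mPFC differed in 21 of the 61 of these genes that entered the test. Meis1, Meis2, Pbx3, Dlx2, Dlx5, Dlx6, Pou3f4, Otx2, Lhx8, Nkx2-1 and the SoxC genes were among the 16 higher in NAc, and Otx1, Lhx2, Lhx6 and Pou6f1 were among the 5 lower. This is 26.2% higher and 8.2% lower of those tested, where 7.01% and 5.35% of all 18300 genes tested were called (edgeR quasi-likelihood test, Benjamini-Hochberg adjusted p under 0.05). Their median log2 fold change was 0.32, against 0.007 over all genes. The 8 genes left out by the low-count filter are not counted among those that did not pass. Otx2, Lhx8 and Nkx2-1 had too few mPFC counts to clear that filter without their NAc counts. Such genes could be called only as higher in NAc. In bulk tissue, more cells of a type and more RNA per cell cannot be told apart. Each region also has its own count table, so region and table cannot be told apart.

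These calls depend on which libraries give the spread. Without a mPFC home-cage library, the spread came from the NAc home-cage pair alone, whose striatal minus cortical scores lay far apart (2.96 and 0.21). Every call was then lost. Without a NAc home-cage library, it came from the mPFC home-cage pair alone (-3.23 and -3.21), and more genes were called. Neither kind of fit is thus a check of the calls. DESeq2 gave 20 higher and 7 lower.

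The same contrast was available in the exposed mice, cocaine NAc against social defeat mPFC, in libraries that the home-cage contrast does not use; there region, experience and table coincide. It called 28 of 61 higher and 10 lower (45.9% and 16.4%, against 19.2% and 17.1% of 18362 genes). All 16 genes higher in home-cage NAc and all 5 lower ones passed again with the same sign. The share of all called genes that passed again was not counted, so this repeat cannot be called particular to these genes. Of the 61, 55 had the same sign in both, against 85.3% of 18083 genes. Across these genes the log2 fold changes correlated with Pearson's r = 0.95 and Spearman's rho = 0.88, a description over 61 genes that share 8 libraries. Where a gene passed in a single contrast, the difference between the contrasts was not tested. Without a social defeat library the spread came from the cocaine pair alone, and fewer of these genes were called. Without a cocaine library it came from the social defeat pair alone, and more were called.

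**Figure D1:**
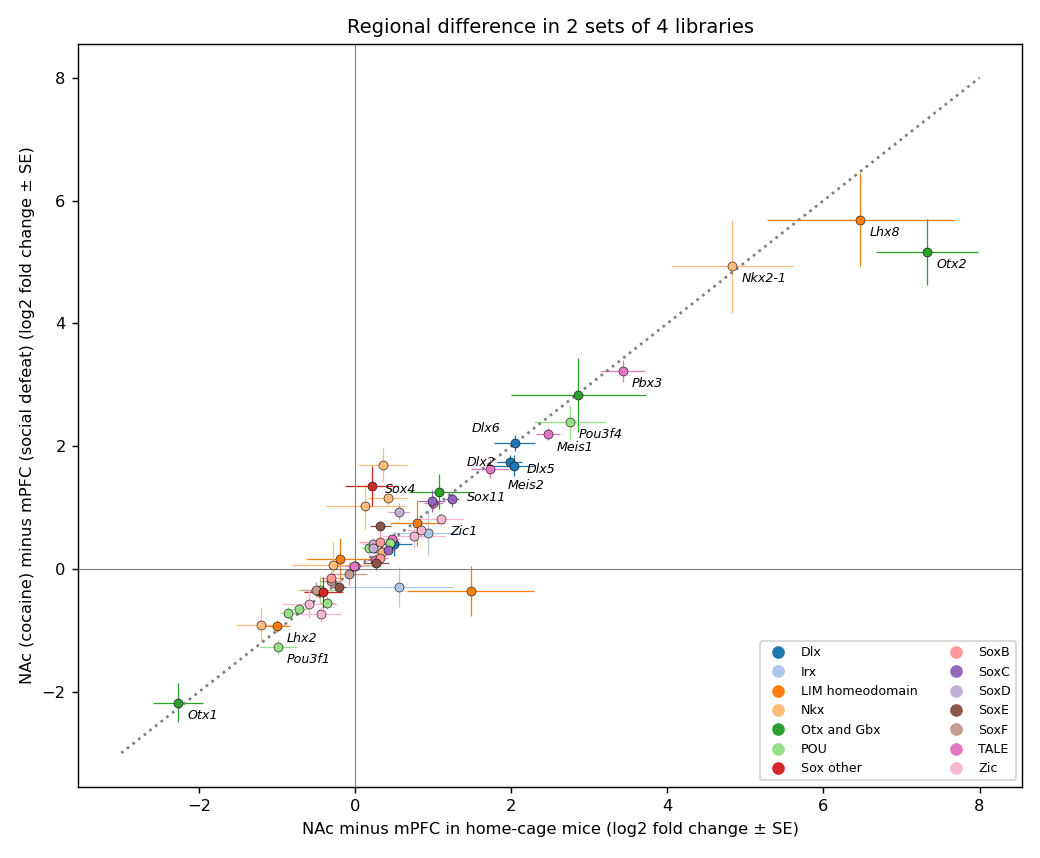
Log2 fold changes of NAc over mPFC in home-cage mice (horizontal) and in exposed mice (vertical) for the 61 genes tested in both, with SE bars, coloured by family; the dotted line marks equal values. Most points lie along the line from Otx1 (-2.27, -2.18) to Lhx8 (6.47, 5.69), while Otx2 (7.33, 5.16) lies below it.

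The Dlx genes are homeobox genes of ventral progenitors and GABAergic neurons, and lie in the genome as convergently transcribed pairs. Dlx2 measured 18.7, 22.3, 18.9 and 23.2 CPM in NAc and 4.85, 5.75, 6.35 and 5.99 CPM in mPFC. Every NAc library lay above every mPFC library, and Dlx2 was 3.95-fold higher in home-cage NAc (log2 fold change 1.98, SE 0.161, adjusted p = 0.00482) and 3.35-fold higher in the exposed contrast (adjusted p = 0.000823). Dlx5 measured 11.2, 8.15, 13.6 and 8.22 CPM against 2.53, 2.80, 3.05 and 3.05 CPM, and Dlx6 17.6, 14.4, 19.2 and 11.6 CPM against 3.49, 3.94, 3.72 and 4.08 CPM. Both were about as far apart between regions as Dlx2, at 4.08-fold (log2 SE 0.265, adjusted p = 0.0135) and 4.13-fold (log2 SE 0.265, adjusted p = 0.0132) in home-cage mice.

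Dlx1, the neighbour of Dlx2, behaved differently. It measured 28.9, 44.7, 27.3 and 44.1 CPM in NAc and 24.9, 25.2, 27.4 and 28.4 CPM in mPFC. The NAc libraries numbered 1 lay close to the mPFC range and those numbered 2 well above it, and the home-cage difference of 0.50 on the log2 scale (SE 0.230) did not pass (adjusted p = 0.208), nor did the exposed one of 0.41 (SE 0.195, adjusted p = 0.152). The home-cage difference was 0.81 without NAc home-cage replicate 1, and the exposed one was 0.69 without cocaine replicate 1. Each of these fits leaves only the NAc library numbered 2, where Dlx1 was high (44.1 and 44.7 CPM). The libraries left out held 27.3 and 28.9 CPM, close to the mPFC range. An antisense transcript, Dlx1as, shares 335 exon bases with Dlx1 and is not a row of these tables; the strand setting of the counting is not known, so their reads cannot be told apart. Dlx3 and Dlx4, which pattern craniofacial and skin tissue, stayed under 0.1 CPM in every library.

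The neighbouring members were then compared as count ratios within each library, a comparison chosen after the values had been seen. Dlx1 (chr2:71528113-71533981) and Dlx2 (chr2:71543408-71546754) lie 9.43 kb apart on chromosome 2. The Dlx2 to Dlx1 ratio was 0.647, 0.499, 0.691 and 0.525 in NAc and 0.195, 0.228, 0.232 and 0.211 in mPFC. The ratio was 2.71-fold higher in NAc (log2 difference 1.44), in 4 of 4 libraries above 4 of 4, with p = 0.0286 in a two-sided exact permutation test over 4 against 4 libraries of both experiences, the smallest p this design allows, and adjusted p = 0.0714 over the 5 pairs compared. Dlx5 and Dlx6, 9.24 kb apart on chromosome 6, kept a Dlx5 to Dlx6 ratio of 0.635, 0.566, 0.707 and 0.711 in NAc and 0.725, 0.710, 0.818 and 0.746 in mPFC (log2 difference -0.20, exact permutation p = 0.0571, adjusted p = 0.0714). So the Dlx2 to Dlx1 ratio did not overlap between regions whereas the Dlx5 to Dlx6 ratio did, and neither passed at 0.05 after adjustment.

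**Figure D2:**
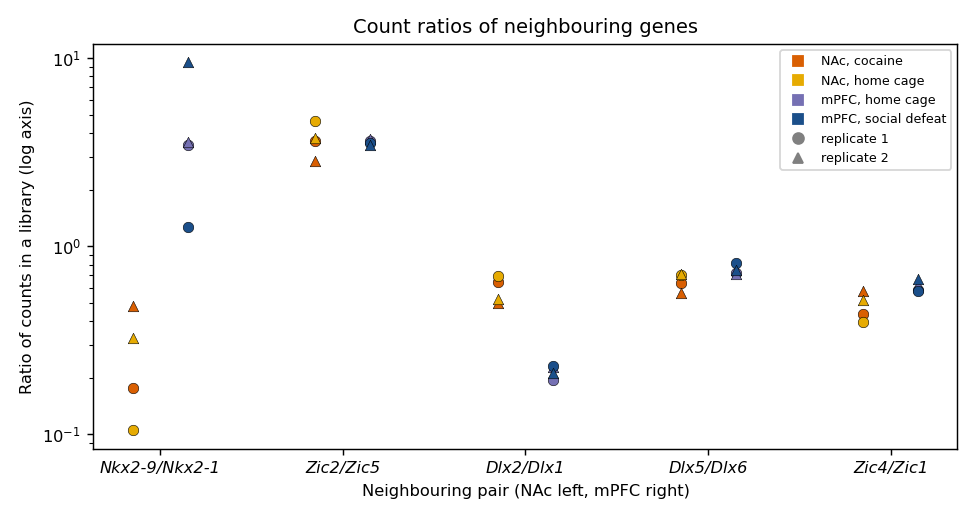
Ratio of the counts of neighbouring genes in each library on a log axis, with NAc libraries on the left and mPFC libraries on the right of each pair. Dlx2 to Dlx1 (0.499 to 0.691 in NAc, 0.195 to 0.232 in mPFC) and Nkx2-9 to Nkx2-1 separate the regions, while Zic2 to Zic5 lies in the same range in both.

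TALE homeodomain genes gave 5 calls among 7 genes, all of them higher in NAc in both contrasts. Meis1 measured 13.9, 14.7, 14.7 and 17.2 CPM in NAc and 3.04, 2.64, 3.30 and 3.02 CPM in mPFC. It had the smallest p of all these genes, with a 5.56-fold difference in home-cage mice (log2 SE 0.150, adjusted p = 0.00262) and little spread within either region. Pbx3 measured 164, 117, 195 and 114 CPM against 14.8, 13.7, 14.3 and 16.2 CPM, and was 10.8-fold higher (log2 SE 0.279, adjusted p = 0.00482). Meis2, a gene of lateral ganglionic eminence progenitors and their striatal progeny, measured 733, 548, 849 and 524 CPM against 203, 211, 206 and 211 CPM (3.30-fold, log2 SE 0.244, adjusted p = 0.0161). For Pbx3 and Meis2 the mPFC libraries were nearly equal while the NAc libraries numbered 1 were the highest of the 8.

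A few more TALE genes are named after their values were seen. Pbx4 measured 26.8, 23.9, 26.1 and 26.5 CPM in NAc and 18.7, 19.2, 18.1 and 18.6 CPM in mPFC, with log2 fold changes of 0.47 (SE 0.0914, adjusted p = 0.0351) in the home-cage and 0.48 (SE 0.0801, adjusted p = 0.00897) in the exposed contrast. Meis3 lay between 20.4 and 22.9 CPM in all 8 libraries and Pbx2 between 27.4 and 34.6 CPM, and neither passed in either contrast (smallest adjusted p 0.144). Of 5 related TALE genes taken as a list, 0 were higher and 2 lower in home-cage NAc: Mkx at -2.41 (SE 0.451, adjusted p = 0.0314; -3.28 without NAc home-cage replicate 2) and Pknox2, a further Pbx partner, at -0.55 (SE 0.114, adjusted p = 0.0400).

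Otx1 and Otx2, paralogous homeobox genes of the anterior brain, differed in opposite directions. Otx1, which is used in deep-layer cortical neurons, measured 1.49, 3.05, 1.37 and 2.67 CPM in NAc and 9.61, 9.70, 10.8 and 9.98 CPM in mPFC. It was 4.82-fold lower in home-cage NAc (log2 fold change -2.27, SE 0.322, adjusted p = 0.0161) and had -2.18 (SE 0.315, adjusted p = 0.00613) in the exposed contrast, or -2.79 without cocaine replicate 2; the NAc libraries numbered 2 lay above those numbered 1. Otx2, known for choroid plexus and anterior neural development, measured 1.05, 0.581, 0.949 and 0.638 CPM in NAc, which is 83 to 168 counts per library.

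Otx2 had 1 and 0 counts in the mPFC home-cage libraries and 2 and 4 after defeat. The ratio of home-cage counts, scaled to library totals, was 200.2 with a 95% exact conditional interval of 35.6 to 7939, and in exposed mice it was 37.0 (16.7 to 102), intervals that cover counting error only. The fitted log2 fold changes, which depend on a prior count at such levels, were 7.33 (SE 0.653, adjusted p = 0.00619) and 5.16 (SE 0.534, adjusted p = 0.00265), and the home-cage one ran from 6.59 without mPFC home-cage replicate 2 to 9.82 without replicate 1. Markers of choroid plexus and ependyma were in part higher in NAc too. Their summed level over 6 genes was 20.4, 12.9, 27.0 and 10.2 CPM in NAc and 4.69 to 6.45 CPM in mPFC. Of 4 tested, 1 was higher in home-cage NAc, Clic6, and 3 in exposed NAc, Clic6, Kl and Foxj1. The remaining one, Ttr, passed in neither contrast (home cage 2.75, SE 0.693, adjusted p = 0.0629, and exposed 0.46, SE 0.805, adjusted p = 0.687). Folr1 held at most 0.0295 CPM in any library. The part of these markers in the Otx2 difference was not tested. Otx2os1, on the opposite strand, shares 154 exon bases with Otx2, and reads of the 2 genes cannot be told apart without strand.

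Gbx1 and Gbx2, related homeobox genes, are given after their values were seen. Gbx2, which is used in thalamic and cholinergic neurons, measured 0.330, 0.203, 0.480 and 0.116 CPM in NAc and 0.0143 to 0.0609 CPM in mPFC. Its log2 fold change was 2.86 (SE 0.862, adjusted p = 0.0913) in home-cage mice and 2.83 (SE 0.605, adjusted p = 0.0184) in exposed mice, where it was 4.15 without social defeat replicate 1 and 2.12 without replicate 2 and no longer passed. Gbx1 was at 0.595 to 1.20 CPM in NAc and 0.373 to 0.459 CPM in mPFC and passed in the exposed contrast alone (1.26, SE 0.285, adjusted p = 0.0216; home cage adjusted p = 0.128).

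LIM-homeodomain genes went both ways. Lhx8, a factor of forebrain cholinergic neurons, had 241, 90, 451 and 65 counts in the NAc libraries and 2 or 3 counts in each mPFC library. Its ratio of counts, scaled to library totals, was 101 (95% exact interval 39.2 to 372) in home-cage and 53.5 (24.3 to 147) in exposed mice. The fitted log2 fold changes were 6.47 (SE 1.20, adjusted p = 0.0305) and 5.69 (SE 0.759, adjusted p = 0.00499). They moved with single libraries, to 4.78 and 7.21 without NAc home-cage replicates 1 and 2, and to 4.79 without cocaine replicate 1.

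Lhx2, a selector gene of cortical progenitors, measured 40.6, 47.4, 36.3 and 48.0 CPM in NAc and 80.0, 87.3, 85.6 and 83.4 CPM in mPFC. Every NAc value lay below every mPFC value, and Lhx2 was 2.0-fold lower in home-cage NAc (log2 SE 0.159, adjusted p = 0.0213) and 1.90-fold lower in exposed NAc (adjusted p = 0.00231). Lhx6, which marks interneurons born in the medial ganglionic eminence, measured 16.2, 16.2, 15.7 and 15.2 CPM in NAc and 20.9, 21.7, 21.1 and 20.9 CPM in mPFC. The gap was small, -0.48 on the log2 scale (SE 0.0961, adjusted p = 0.0374), but the NAc libraries agreed closely with each other. Lhx1, Lhx3, Lhx4 and Lhx9 lay below 0.61 CPM throughout and did not pass or were not tested.

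Among 11 tested LIM partners and other LIM genes, 3 were higher and 2 lower in home-cage NAc. Lmo3, a LIM-only protein, measured 195, 218, 231 and 263 CPM in NAc and 70.1, 64.3, 69.3 and 65.7 CPM in mPFC (log2 fold change 1.87, SE 0.124, adjusted p = 0.00338). Lmo4, a second LIM-only protein that competes for the same cofactor, measured 67.2, 73.8, 79.2 and 62.1 CPM in NAc against 222, 205, 222 and 204 CPM in mPFC (-1.61, SE 0.151, adjusted p = 0.00686). The 2 LIM-only genes thus had opposite regional orders, without overlap between regions.

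Nkx2-1, which specifies the medial ganglionic eminence, had few counts in the mPFC libraries. It had 296, 120, 449 and 101 counts in NAc and 9, 5, 11 and 2 counts in mPFC, a ratio of scaled counts of 30.7 (95% exact interval 18.2 to 56.6) in home-cage and 31.0 (17.9 to 58.8) in exposed mice. Both contrasts passed, at 4.83 (SE 0.785, adjusted p = 0.0221) and 4.93 (SE 0.756, adjusted p = 0.00714) on the log2 scale. Without NAc home-cage replicates 1 and 2 in turn the first was 3.67 and 5.45. The second was 4.11 without cocaine replicate 1, 6.62 without social defeat replicate 1, and 4.13 without social defeat replicate 2, where it no longer passed (adjusted p = 0.0570).

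Of the remaining Nkx genes, named after their values were seen, Nkx2-3 had 18, 9, 41 and 7 counts in NAc and 0 in all 4 mPFC libraries. Against a floor of 3 counts over the mPFC group it was at least 12.5-fold higher in home-cage NAc and at least 8.72-fold higher in exposed NAc, with no test because it failed the filter in those contrasts. Nkx2-9 lies 74.48 kb from Nkx2-1. The Nkx2-9 to Nkx2-1 ratio was 0.176, 0.483, 0.105 and 0.327 in NAc and 3.44, 3.60, 1.27 and 9.50 in mPFC (exact permutation p = 0.0286, adjusted p = 0.0714), the mPFC ratios resting on few counts. Nkx2-9 itself passed as higher in exposed NAc (1.69, SE 0.283, edgeR adjusted p = 0.00929). In home-cage mice it did not pass (0.35, SE 0.322, edgeR adjusted p = 0.498). Nkx6-2, a gene of the oligodendrocyte lineage, measured 8.54, 7.51, 7.38 and 4.49 CPM in NAc and 4.78, 4.02, 3.50 and 3.83 CPM in mPFC, and passed in the exposed contrast (1.15, SE 0.115, adjusted p = 0.00246) but not in home-cage mice (0.42, SE 0.261, adjusted p = 0.327). It shares 246 exon bases on the opposite strand with Inpp5a, which has 13146 counts per library on average, so part of its counts cannot be assigned. Nkx2-2, also of that lineage, lay at 7.81 to 9.28 CPM in NAc and 6.02 to 7.52 CPM in mPFC and did not pass in either contrast.

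Zic zinc-finger genes are used in medial and dorsal telencephalon, septum and meninges. Zic1 measured 7.60, 8.34, 6.62 and 11.9 CPM in NAc and 4.22, 4.39, 4.56 and 4.54 CPM in mPFC. Every NAc library was above every mPFC library, with 1.10 (SE 0.288, adjusted p = 0.0685) in home-cage mice and 0.82 (SE 0.0978, adjusted p = 0.00371) in exposed mice, so that only the second passed.

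Zic2, named after its values were seen, had the opposite sign, at 5.41, 6.56, 4.53 and 7.53 CPM in NAc and 7.45, 8.82, 9.78 and 10.4 CPM in mPFC, and passed as lower in the exposed contrast (-0.74, SE 0.118, adjusted p = 0.00810; home cage -0.44, adjusted p = 0.312). Zic4 and Zic5, named likewise, did not pass in either contrast. Zic2 and Zic5 are neighbours (9.76 kb) and their ratio lay between 2.83 and 4.64 in NAc and between 3.44 and 3.72 in mPFC (log2 difference 0.03, exact permutation p = 0.743). Zic1 and Zic4 overlap on opposite strands by 60 exon bases, and their ratio of 0.397 to 0.578 in NAc and 0.578 to 0.666 in mPFC (exact permutation p = 0.0571, adjusted p = 0.0714) carries reads that may belong to either. Meningeal fibroblast markers, which share Zic expression, summed to 17.01 to 19.9 CPM in NAc and 17.8 to 30.1 CPM in mPFC, and 0 of 6 tested were called in home-cage mice. In exposed mice, where Zic2 passed as lower, 3 of 6 were also lower, Dcn (-1.02, adjusted p = 0.00659), Col1a2 (-0.63, adjusted p = 0.00484) and Slc6a13 (-0.74, adjusted p = 0.0129), and 0 were higher. The part of these markers in the Zic values was not tested.

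POU-domain genes split. Pou3f4, a POU factor of striatal development and of the inner ear (chrX:110814280-110817207), measured 33.5, 18.8, 42.1 and 16.2 CPM in NAc and 4.39, 4.20, 5.18 and 4.92 CPM in mPFC. It was 6.75-fold higher in home-cage NAc (log2 fold change 2.75, SE 0.458, adjusted p = 0.0237; 1.91 without NAc home-cage replicate 1) and 5.23-fold higher in exposed NAc (adjusted p = 0.00347). Its relative Pou3f1 ran the other way, at 15.6, 12.8, 19.9 and 12.2 CPM in NAc and 30.6, 32.8, 36.2 and 32.8 CPM in mPFC. Pou3f1 passed in exposed mice (-1.27, SE 0.117, adjusted p = 0.00202) and not in home-cage mice (-0.99, SE 0.237, adjusted p = 0.0563), though the groups did not overlap in either.

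Pou3f2, an upper-layer cortical factor, measured 17.3, 20.3, 21.1 and 18.9 CPM in NAc and 26.2, 24.9, 26.2 and 29.2 CPM in mPFC, and again passed in the exposed contrast (-0.55, SE 0.101, adjusted p = 0.0123) but not in home-cage mice (-0.36, SE 0.104, adjusted p = 0.0813). Pou6f1 measured 92.2, 98.2, 94.2 and 103 CPM against 155, 168, 152 and 153 CPM (home cage -0.72, SE 0.111, adjusted p = 0.0196). Its 4 NAc libraries lay close together and below all mPFC libraries. Pou1f1 and Pou4f1, a pituitary and a sensory neuron factor, stayed at or below 0.118 CPM, and Pou2f1, named after its values were seen, passed only in exposed mice (0.42, SE 0.0858, adjusted p = 0.0162).

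**Figure D3:**
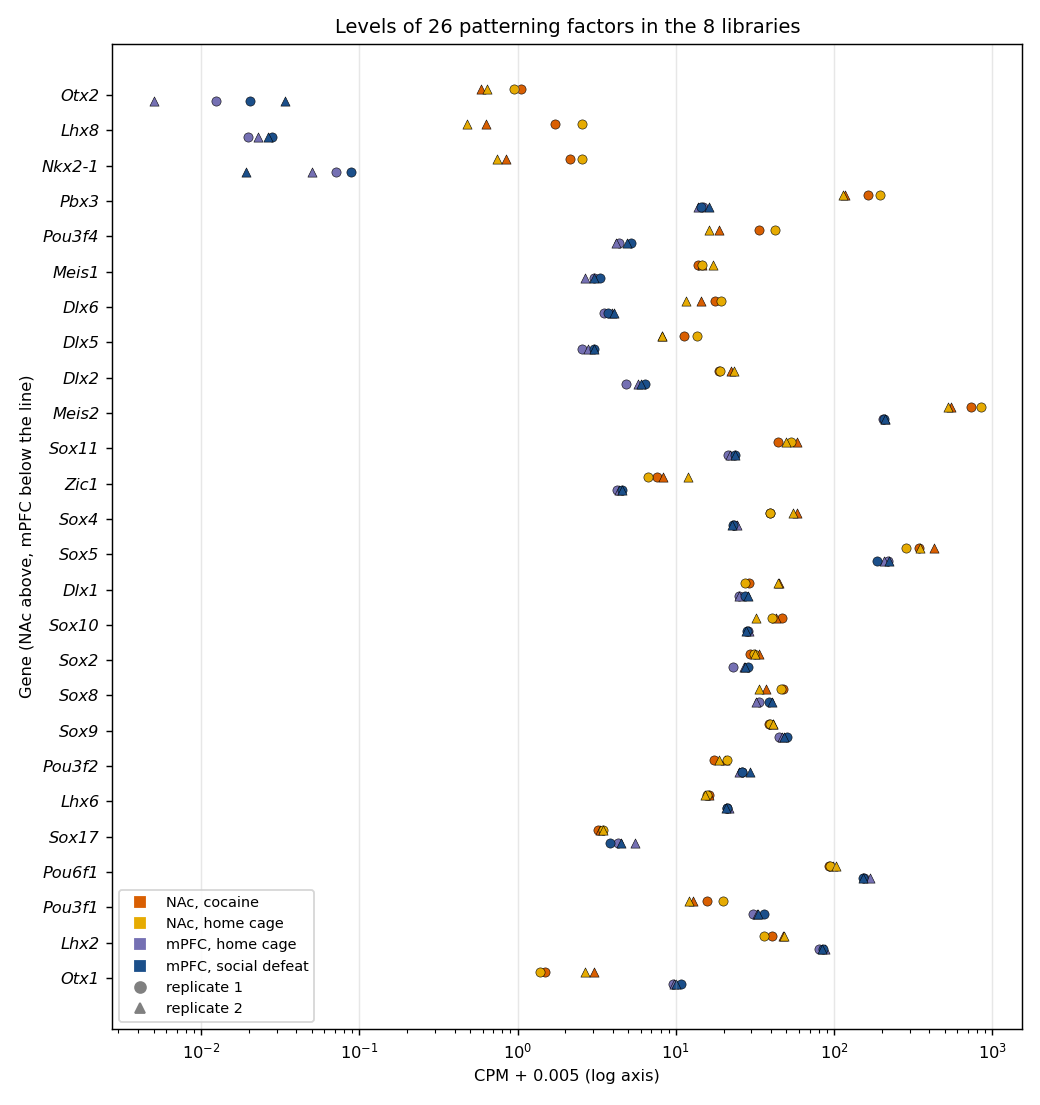
Level of 26 genes in each of the 8 libraries, in CPM plus 0.005 on a log axis, with NAc above and mPFC below each gene's line, ordered by the home-cage regional difference. Otx2, Lhx8 and Nkx2-1 at the top lie under 0.1 CPM in mPFC, the genes from Pbx3 to Sox4 lie higher in all 4 NAc libraries, and Otx1, Lhx2 and Pou6f1 near the bottom lie higher in all 4 mPFC libraries.

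Among Sox genes, which carry an HMG-box DNA-binding domain, all 3 members of the SoxC group passed as higher in NAc in both contrasts. Sox11, a factor of immature neurons, measured 44.4, 58.0, 53.3 and 49.8 CPM in NAc and 21.4, 21.9, 23.5 and 23.5 CPM in mPFC (home cage 1.24, SE 0.0920, adjusted p = 0.00430). Sox4 measured 39.4, 58.6, 39.2 and 54.9 CPM against 23.2, 24.2, 23.0 and 22.8 CPM (0.98, SE 0.175, adjusted p = 0.0281). Sox12, named after its values were seen, differed less (0.42, SE 0.0877, adjusted p = 0.0405).

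The SoxD gene Sox5, which acts in deep-layer cortical neurons and in glia, measured 345, 426, 286 and 348 CPM in NAc and 220, 206, 185 and 222 CPM in mPFC. It passed in exposed mice (0.93, SE 0.140, adjusted p = 0.00671) and not in home-cage mice (0.56, SE 0.139, adjusted p = 0.0595). Sox2, a SoxB gene of neural stem cells and astrocytes, lay at 29.2 to 33.3 CPM in NAc and 23.1 to 28.5 CPM in mPFC and did not pass in either contrast (home cage 0.31, SE 0.112, adjusted p = 0.128).

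The SoxE genes, which direct glial lineages, did not pass in home-cage mice. Sox10, the oligodendrocyte lineage factor, measured 47.1, 42.7, 40.4 and 32.2 CPM in NAc and 28.7, 29.2, 28.1 and 27.9 CPM in mPFC (home cage 0.32, SE 0.132, adjusted p = 0.172; exposed 0.70, SE 0.0732, adjusted p = 0.00275). Sox9, an astrocyte factor, measured 38.6, 41.2, 39.2 and 40.8 CPM in NAc and 44.9, 46.8, 50.5 and 47.9 CPM in mPFC, and passed as lower in exposed mice (-0.29, SE 0.0686, adjusted p = 0.0248; home cage -0.21, adjusted p = 0.188). Astrocyte markers moved with it in part: 3 of 7 were lower and 0 higher in exposed mice and 2 of 7 lower and 0 higher in home-cage mice. The others were not called, and Slc7a10 (exposed 0.11, home cage 0.08) and Gfap (0.00 and 0.14) did not lie lower in NAc. The sum of the 7 was 436 to 505 CPM in NAc and 530 to 538 CPM in mPFC, and their part in the Sox9 difference was not tested. Sox8 measured 47.3, 37.3, 46.3 and 33.4 CPM against 33.5, 32.1, 38.9 and 40.5 CPM, with overlapping groups in both contrasts (0.27, adjusted p = 0.324, and 0.10, adjusted p = 0.535; without cocaine replicate 2 the latter was 0.26 and passed, and without cocaine replicate 1 it was -0.08). Oligodendrocyte markers moved with Sox10: the sum of 8 was 2533, 2241, 2381 and 1342 CPM in NAc and 1495, 1235, 1109 and 1220 CPM in mPFC, with 0 of 8 called in home-cage mice and 8 of 8 higher in exposed mice. Their part in the Sox10, Sox8 and Nkx6-2 values was not tested.

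Sox17, a SoxF gene of arterial endothelium, measured 3.23, 3.30, 3.44 and 3.47 CPM in NAc and 4.28, 5.49, 3.85 and 4.50 CPM in mPFC and did not pass (home cage -0.51, SE 0.172, adjusted p = 0.114; exposed -0.34, adjusted p = 0.0812). The sum of 7 endothelial markers was 131 to 155 CPM in NAc and 138 to 167 CPM in mPFC. The Irx genes, homeobox genes of more posterior brain, were at or under 0.574 CPM in every library, and 0 of the 3 tested passed in either contrast.

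The wider lists give the setting of these values. Of 39 tested other forebrain patterning factors, 11 were higher and 8 lower in home-cage NAc, the smallest p belonging to Tshz3 (-2.48, SE 0.213, adjusted p = 0.00562) and the upper-layer factor Cux2 (-1.92, SE 0.173, adjusted p = 0.00642). Of 9 GABA genes linked to Dlx factors, 4 were higher and 0 lower, led by the zinc-finger genes Sp9 (2.06, SE 0.192, adjusted p = 0.00686) and Bcl11b (1.39, SE 0.152, adjusted p = 0.00912), and Bcl11b and Sp9 stand on both lists. Of 5 tested noncoding genes that neighbour or overlap genes of these families, 2 were higher. They were Sox1ot (2.26, SE 0.321, adjusted p = 0.0163) and Dlx6os1 (2.22, SE 0.488, adjusted p = 0.0455). Without mPFC home-cage replicate 1 Dlx6os1 had 2.84. Sox1ot overlaps Sox1, which was listed at 0 in every library and is not among the genes kept. Striatal projection neuron markers were higher in 10 of 12 and cortical glutamatergic markers lower in 3 of 12.

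Within NAc, the libraries numbered 1 and 2 in their titles differed in many of these genes, and the labels do not say what the number marks. With treatment in the model, 16 of 62 were higher in the libraries numbered 1 and 11 were lower (25.8% and 17.7%, against 9.67% and 9.16% of 18418 genes, edgeR). This fit has 1 residual degree of freedom, so its p-values measure only how far the number difference varied between the treatments. The comparison was made because earlier results of these data had shown the difference, so the calls are no separate support for it. A total of 50 of 62 had a ratio of number 1 over number 2 of the same sign in cocaine and home-cage mice, against 72.6% of all genes. The median absolute log2 ratio between the replicates of a group was 0.26 after cocaine and 0.29 in NAc home-cage mice, against 0.16 in mPFC home-cage mice and 0.10 after social defeat (pseudocount 0.05 CPM).

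The largest increases in number 1 were those of Lhx8 (1.94, SE 0.219, adjusted p = 1.27e-05), Nkx2-1 (1.57, SE 0.178, adjusted p = 1.33e-05) and Pou3f4 (1.11, SE 0.108, adjusted p = 2.96e-06), among genes that passed with at least 0.5 CPM in a group. Lhx8 had 1.73 CPM in cocaine replicate 1 and 0.630 CPM in replicate 2, and 2.55 CPM in NAc home-cage replicate 1 and 0.471 CPM in replicate 2. Pbx3 (0.63, SE 0.0872), Dlx5 (0.60, SE 0.101), Meis2 (0.56, SE 0.0979), Dlx6 (0.52, SE 0.104) and Pou3f1 (0.51, SE 0.104) were also higher, with edgeR adjusted p no larger than 0.00245. Otx2 (0.71, SE 0.202), Sox8 (0.41, SE 0.0775) and Sox10 (0.24, SE 0.0794) passed in the same direction.

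Lower in number 1 were Otx1 (-0.99, SE 0.151, adjusted p = 0.000215), Dlx1 (-0.66, SE 0.0773, adjusted p = 1.94e-05), Sox4 (-0.53, SE 0.0765, adjusted p = 0.000141), Zic1 (-0.49, SE 0.136), Lhx2 (-0.31, SE 0.0790), Sox5 (-0.29, SE 0.0869) and Dlx2 (-0.27, SE 0.0835), and, named after their values were seen, Zic4 (-0.88, SE 0.152), Zic5 (-0.82, SE 0.167) and Zic2 (-0.50, SE 0.125). The Dlx pairs split, Dlx1 and Dlx2 lower and Dlx5 and Dlx6 higher, although Dlx2, Dlx5 and Dlx6 were all higher in NAc than in mPFC. Genes with the regional difference but no call by number included Meis1 (-0.15, SE 0.0895, adjusted p = 0.270), Sox11 (-0.14, SE 0.0983), Lhx6 (0.02, SE 0.0871) and Pou6f1 (-0.11, SE 0.0769).

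**Figure D4:**
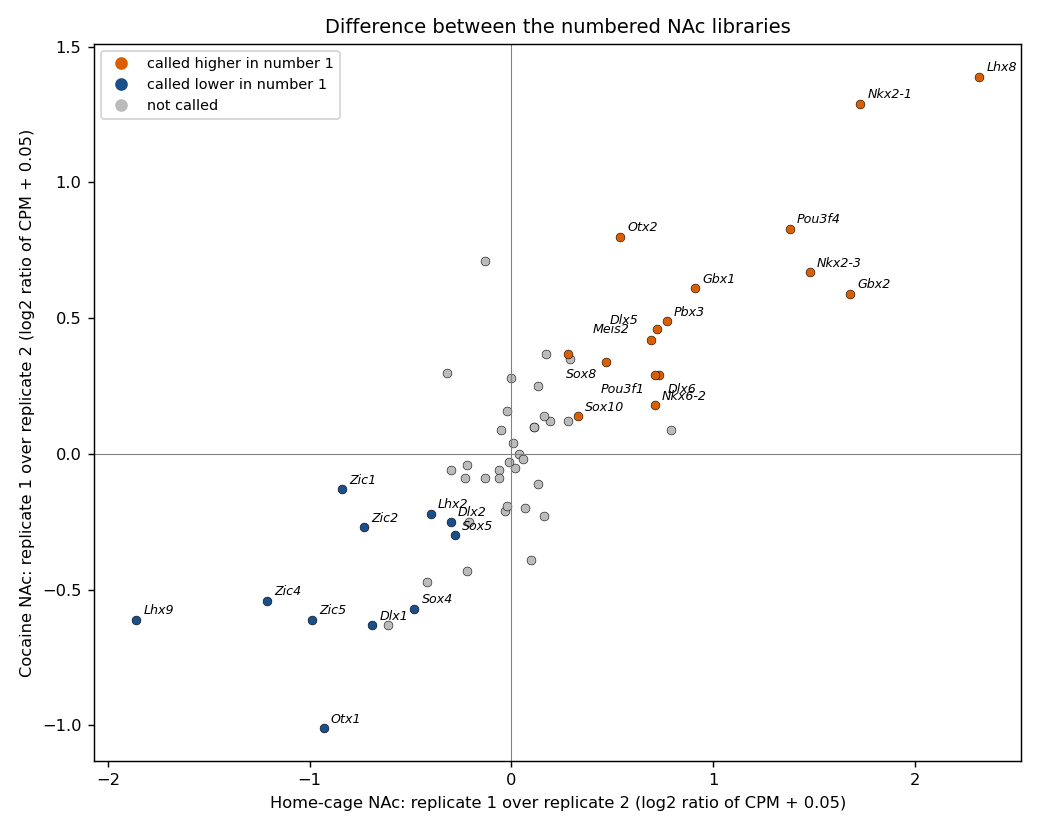
Log2 ratio of NAc replicate 1 over replicate 2 in home-cage mice (horizontal) and in cocaine mice (vertical) for the 62 genes tested, on CPM plus 0.05; colours mark the genes called by number. Lhx8 and Nkx2-1 lie highest at the upper right, and Otx1, Lhx9 and the Zic genes at the lower left.

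Gbx2 (1.35), Nkx2-3 (1.64) and Lhx9 (-1.70), named after their values were seen, passed too. Without NAc home-cage replicate 1 or 2 they had 0.70, 1.03 and -0.84, and Gbx2 had 2.04 without cocaine replicate 1 or 2. Leaving out a home-cage NAc library leaves the number difference to the cocaine pair, and leaving out a cocaine library leaves it to the home-cage pair. Either replicate then gives the same value, and the spread comes from the mPFC libraries alone. These fits are thus no check of the calls by number. Cell type markers moved with the number: 12 of 12 striatal projection neuron markers and 8 of 8 oligodendrocyte markers were higher in number 1. Lower were 10 of 12 cortical glutamatergic markers and 7 of 9 interneuron markers. Against the rest of their lists, cortical Tle4 (0.73, SE 0.0918, edgeR adjusted p = 3.7e-05) and Chat of the interneuron list (1.60, SE 0.131, edgeR adjusted p = 5.94e-07) were higher. The striatal markers summed to 5910 and 2519 CPM in cocaine replicates 1 and 2 and to 6792 and 2246 CPM in NAc home-cage replicates 1 and 2, and to 765 to 890 CPM in mPFC. The part of these markers in the differences by number was not tested.

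The last comparisons asked whether these genes differed shortly after either experience, and 0 of them passed in either. After cocaine, 0 of 62 of these genes were called in edgeR (0% of 18418 genes were called in either direction, and 211 genes but 0 of these had an unadjusted p under 0.05); DESeq2 called 4 genes, none of them among these. The log2 fold changes with the smallest p were those of Nkx2-9 (0.63, SE 0.246), Sox10 (0.31, SE 0.141), Sox15 (0.60, SE 0.300), Sox12 (-0.15, SE 0.0748) and Lhx3 (0.71, SE 0.390), each with an edgeR adjusted p of 1. The SE of regional genes was wide in this contrast, 0.540 for Pou3f4 and 0.917 for Lhx8, and the libraries numbered 1 and 2 lie apart in both groups, so a missing call does not show that the levels were alike.

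After social defeat, 0 of 56 were called in mPFC, where 0.549% of 18027 genes were called higher and 0.155% lower, and 6 of these genes (of 1288 in all) had an unadjusted p under 0.05; DESeq2 called 0 of them. Sox8 measured 33.5 and 32.1 CPM in home-cage mice and 38.9 and 40.5 CPM after defeat (0.27, SE 0.0790, edgeR adjusted p = 0.119). Zic2 measured 7.45 and 8.82 CPM in home-cage mice and 9.78 and 10.4 CPM after defeat (0.30, SE 0.0996, edgeR adjusted p = 0.217). In both the defeat libraries lay above the home-cage libraries. Without mPFC home-cage replicate 1 Sox8 passed (0.30, adjusted p = 0.0440), and without mPFC home-cage replicate 2 Zic2 did (0.43, adjusted p = 0.0158). Of the 6 meningeal fibroblast markers tested, 1 was called higher after defeat, Fmod (0.67, SE 0.138, adjusted p = 0.00240), and Dcn had 0.38 (SE 0.136, adjusted p = 0.331). The summed level of that marker list was 17.8 and 28.1 CPM in home-cage mice and 25.3 and 30.1 CPM after defeat, and the part of these markers in the Zic2 and Zic5 values was not tested. The next smallest p among the patterning genes belonged to Zic5 (0.38, SE 0.137, adjusted p = 0.340), Irx3 (1.26, SE 0.532, adjusted p = 0.531, from 2 to 20 counts a library in mPFC) and Nkx6-2 (-0.28, SE 0.120, adjusted p = 0.564).

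The difference between the responses was tested over all 8 libraries, and 0 of 62 genes passed (0% of 18783 genes called in either direction; 2 of these and 415 of all had an unadjusted p under 0.05; DESeq2 called 2 genes, none of them among these). The smallest p belonged to Nkx2-9 (1.33, SE 0.399), Sox15 (1.13, SE 0.432), Sox10 (0.37, SE 0.159), Nkx6-2 (0.72, SE 0.320) and Sox5 (0.37, SE 0.207), each with an edgeR adjusted p of 1. Of the 56 genes tested in both experiences, 5 had groups that did not overlap and moved alike, against 4.24% of 17722 genes: Irx3 and Lhx3 lay higher and Sox12, Sox18 and Sox30 lower in both exposed groups. None of the 5 passed in either response. A further 4 moved in opposite directions without overlap (Nkx2-9, Nkx6-2, Sox10 and Sox15, higher after cocaine and lower after defeat), against 4.6% of those genes.

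**Figure D5:**
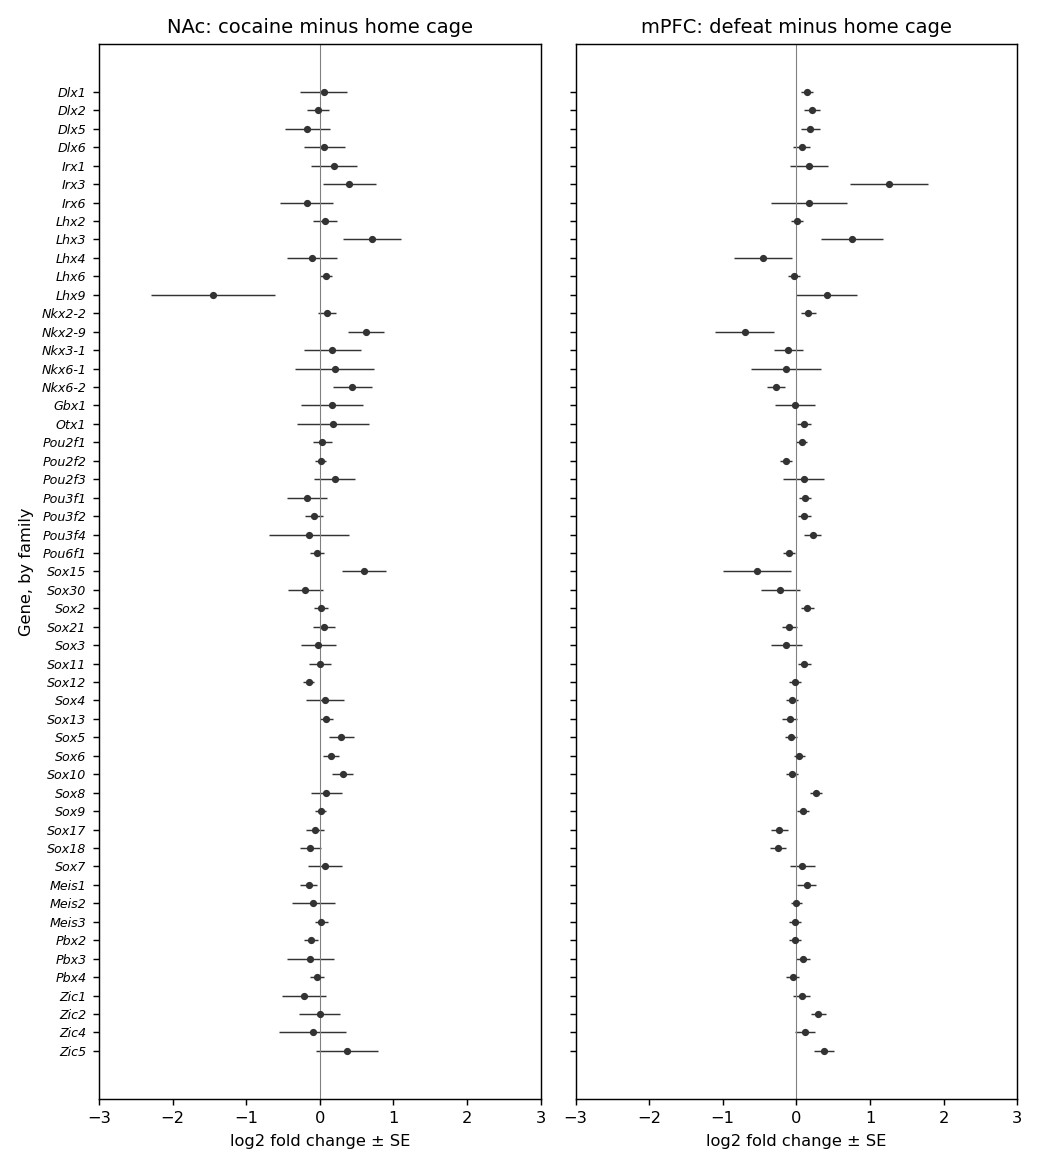
Log2 fold changes with SE bars for 53 of the genes tested in both experiences, cocaine against home cage in NAc (left) and social defeat against home cage in mPFC (right). The bars are wider in NAc for genes such as Pou3f4 and Pbx3, and 0 genes passed in either panel.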

How the data were processed

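Total RNA libraries were aligned to mm10 with STAR 2.7.1a and counted with featureCounts, per the submitters' processing notes; its options on strand, introns and multiple alignments were not given in the sources used here. The authors deposited a table of raw counts by gene symbol for each region, and these counts were used as deposited. Groups came from the sample titles and treatment labels, and mPFC replicates are numbered in the order of the samples.

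Each comparison was fitted over all genes with edgeR 4.0.16 in R 4.3.3 (filterByExpr, TMM, glmQLFit, glmQLFTest), and p-values were Benjamini-Hochberg adjusted over all genes tested. SE was obtained as the size of the log2 fold change over the root of the F statistic. DESeq2 1.42.0, RLE factors, no filter, all libraries in a single fit, a replicate block and leaving out each library were alternatives. Scripts were tested on simulated data. Exact tests used scipy 1.17.1 and plots matplotlib 3.10.9, in python 3.11.15 with pandas 2.3.3 and numpy 2.4.6. Library totals ran from 111901829 to 179479978 counts, and intervals cover counting error only. Positions and overlaps are from GENCODE M21 (GRCm38) and upstream windows from RefSeq (GRCm38.p6).

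The genes and lists were chosen with earlier results of these data known. Named genes were 23 family representatives and, from each family, up to 2 members with the largest positive and 2 with the largest negative home-cage regional difference that passed at 0.5 CPM or more in a group; in the treatment comparisons, the 5 with the smallest p. Some genes counted in the totals are not reported here by name. Other markers tested in home-cage NAc were those of septum, basal forebrain, hypothalamus and thalamus (2 higher, 0 lower of 10), interneurons (2 higher, 2 lower of 9), oligodendrocyte precursors (2 higher, 0 lower of 4), endothelial cells (0 higher, 1 lower of 7), mural cells (0 higher, 1 lower of 5) and microglia (0 called of 4).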

Additional observations from a re-analysis of the deposited data

Results flagged for a closer look

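In 4 genes the cocaine libraries lay above both NAc home-cage libraries while the social defeat libraries lay below both mPFC home-cage libraries, so that the responses had opposite signs without overlap in either region. They were Nkx2-9, with a difference between responses of 1.33 on the log2 scale, Sox15 with 1.13, Nkx6-2 with 0.72 and Sox10 with 0.37. This is 4 of the 56 genes tested in both, against 4.6% of 17722 genes. The difference was tested, with an edgeR adjusted p of 1 for each. Nkx2-9 measured 0.373 and 0.406 CPM after cocaine and 0.266 and 0.239 CPM in NAc home-cage mice, and 0.107 and 0.136 CPM after defeat and 0.228 and 0.162 CPM in mPFC home-cage mice, which is 14 to 58 counts a library. Sox15 rests on 12 to 36 counts a library. Sox10 and Nkx6-2 are genes of the oligodendrocyte lineage, and the summed oligodendrocyte markers were 2533 and 2241 CPM after cocaine, 2381 and 1342 CPM in NAc home-cage mice, 1109 and 1220 CPM after defeat and 1495 and 1235 CPM in mPFC home-cage mice. Their part in these values was not tested.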

How the results depend on the processing

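With 2 libraries a group, single libraries decide the counts of calls. The home-cage regional comparison called 2262 genes in all, 3683 with DESeq2 and 4654 with all 8 libraries in a single fit, which also gave 9 members lower. Leaving out each library gave 0 to 29 members higher, 0 to 12 lower and 0 to 8048 genes in all; in the exposed comparison it gave 12 to 33, 4 to 13 and 1133 to 9334, and Sox8 ran from -0.08 to 0.26. For social defeat, a single fit of all libraries called 5 genes, and leaving out each library gave 58 to 238 genes and 0 to 1 members higher. For cocaine, DESeq2 called 4 genes and the replicate block 38, with 0 members in each. For the difference between responses DESeq2 called 2 genes, and leaving out each library gave 0 to 1.

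The deviations of same-numbered NAc libraries correlated at 0.61 across 18418 genes, but no label ties that number to an animal, batch or day, so the paired fit is an alternative here. Between NAc libraries numbered 1 and 2, DESeq2 called 9 members higher and 2218 genes in all. Leaving out each NAc library, within the fit of all 8 libraries and chosen after seeing the data, gave 7 to 14 members higher, 6 to 10 lower and 1694 to 3909 genes in all; Pou3f2 ran from -0.22 to 0.16 and Sox11 from -0.38 to 0.10. Where a group is left with 1 library, that library is assumed to vary like the other group. RLE factors and no low-count filter changed no count of members by more than 1.5 times and reversed no named gene. Genes with 0 to 4 counts in a mPFC library, such as Otx2, Lhx8 and Nkx2-3, are limited by depth.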
